A study of Mus musculus with 4 samples.

Results

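The genes examined across 4 Nanopore cDNA libraries of mouse neural stem cells encode proteins that bind or process U6 snRNA, the small nuclear RNA at the core of the spliceosome. They were Tut1, Usb1, Ssb, Sart3, Mettl16, Larp7 and Mepce, chosen by their known role and matched by gene identifier, and they made up 7 of the 14949 genes and 32 of the 46637 isoforms with a gene name in the deposited table. The cells were primary cultures described by the study as neural stem cells of embryonic neocortex, and by the labels only as neural cells from brain. The control library came from Tut1f/f cells given an empty lipid nanoparticle (LNP). Its title calls it wild type, but both of its Tut1 alleles carry loxP sites. The other 3 libraries received LNP with mRNA for the Cre recombinase, and per the study's methods were taken after 3 days. Their labels give the genotypes Tut1f/f, p53f/f (floxed Trp53) and the combination Tut1f/f;p53f/f, and the libraries are called here those labelled as Tut1 deletion, as Trp53 deletion and as double deletion. In the plots p53f/f is written Trp53f/f and ;Cre is added. No library of p53f/f cells with an empty LNP was analysed here, so every library without Cre mRNA is the single Tut1f/f control, and Cre mRNA and the deleted gene cannot be told apart in a comparison with it. Each group had 1 library, and a difference between 2 of them therefore lacks any check by replicates. Intervals describe counting error alone, as reads from PCR carry no molecular identifier and are not independent.

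U6 is transcribed by RNA polymerase III and ends in a run of uridines, to which the La protein (Ssb) binds. TUT1 is a terminal uridylyltransferase that lengthens this run, and USB1 is an exonuclease that trims it and leaves a cyclic phosphate on the last base, after which the LSm ring replaces La. MEPCE methylates the 5′ end of U6 and of 7SK RNA, and LARP7 binds the uridine-rich 3′ end of both. METTL16 places an N6-methyladenosine in the stretch of U6 that pairs with the 5′ splice site, and SART3 helps U6 to pair again with U4. The 3′ end of 7SK, which LARP7 holds, is shown in DNA letters from the GENCODE M21 transcripts on GRCm38. It is the last 60 bases of Rn7sk (chr9:78175303-78175362, minus strand), and the capitals mark the 3 terminal T bases.
7SK, last 60 bases: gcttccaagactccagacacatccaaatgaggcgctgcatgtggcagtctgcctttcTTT

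The control held 4244467 reads that named a gene, and the libraries labelled as Tut1, Trp53 and double deletion held 2968653, 3432639 and 2863392. Values in 4 libraries are given in this order from here on. Levels are TMM-scaled reads per 1000000 gene reads (CPM), with exact Poisson 95% intervals. The control stood apart in that 18.7% of its gene reads fell on 1 ribosomal RNA gene, against 5.46% to 9.75% in the others, and in that 17.2% of its reads named no gene, against 27.3% to 30.2%. Ddx3y, a gene of the Y chromosome, had 85, 0, 0 and 66 reads and Xist, transcribed from an inactive X chromosome, had 0, 44, 49 and 0, so the libraries also divide in pairs that cross the labelled genotypes. All 9 neural stem cell markers examined were present, with a summed level of 11589.5 to 13388.9 CPM. Fabp7 held most of this sum, with 39422, 30043, 32690 and 33582 reads, while Pax6 had 35, 60, 56 and 49. Markers of other cell types were summed over those with an entry. The 4 neuron markers summed to 67.7 to 84.7 CPM, the 4 astrocyte markers to 215 to 385 CPM, and the 6 markers of the oligodendrocyte lineage to 354 to 676 CPM. The 1 microglia marker stayed at 0.861 CPM or less and the 1 fibroblast marker at 0.287 CPM or less. Rbfox3, Gfap, Cx3cr1, Csf1r, Aif1, 3 other fibroblast markers and the 3 endothelial markers had no entry in the counts used here, so no level is given for them. Against the control, 4, 3 and 1 of the neural stem cell markers were higher by at least 2-fold with an exact 95% interval of the ratio that excludes no change, here called the 2-fold rule, and 0, 1 and 1 were lower, where 26.0%, 27.8% and 20.1% of all genes tested were past it in either direction. Hes1 was past this rule upward in all 3 libraries with Cre mRNA. Nes and Sox9 were so in those labelled as Tut1 deletion and as Trp53 deletion, and Pax6 in the former alone. Vim was past it downward in those labelled as Trp53 deletion and as double deletion. Of the astrocyte markers, Aldh1l1 (187, 16, 11 and 71 reads) was past it downward in the libraries labelled as Tut1 deletion and as Trp53 deletion, and S100b (10, 16, 10 and 21 reads) upward in that labelled as double deletion. Of the oligodendrocyte lineage, Sox10 (14, 27, 14 and 13 reads) was past it upward in the library labelled as Tut1 deletion and Olig2 (998, 1391, 1953 and 1073 reads) in that labelled as Trp53 deletion. Their part in the results was not tested. In bulk RNA, fewer cells of a type and less RNA per cell cannot be told apart.

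Tut1 itself was the first check of the labels. The gene (ENSMUSG00000071645, chr19:8953847-8966210, plus strand) had 37, 11, 14 and 27 reads, or 9.30 CPM (6.55 to 12.8), 3.63 CPM (1.81 to 6.50), 4.02 CPM (2.20 to 6.74) and 9.15 CPM (6.03 to 13.3). Reads were thus low in the library labelled as Trp53 deletion, where Tut1 should be intact, and as high as in the control in the library labelled as double deletion, where it should be deleted. The total divided the libraries in the same pairs as Ddx3y and Xist, and the part of that division in the result was not tested, nor was whether libraries or cultures were exchanged. Trp53, the other floxed gene, had 175, 67, 10 and 19 reads and was lowest in the libraries labelled as its deletion. The deletion, per the study, removes exon 2 from the mRNA and not the whole transcript, so the total alone cannot show it. Exon 2 (chr19:8955387-8955577, plus strand) is wholly coding, and its reference sequence is shown because it is the stretch that Cre removes.
Tut1 exon 2: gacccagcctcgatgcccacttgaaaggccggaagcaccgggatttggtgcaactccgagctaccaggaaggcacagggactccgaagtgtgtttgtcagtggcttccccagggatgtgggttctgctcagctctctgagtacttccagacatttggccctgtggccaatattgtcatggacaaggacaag
Its 191 bases leave a remainder of 2 when divided by 3. A transcript of Tut1-201 without them would keep 27 whole codons of exon 1, run 54 codons out of frame and meet a stop in exon 3, after 81 codons in place of 869.

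Isoforms that hold exon 2 in the annotation, summed, were lower than the control in every library with Cre mRNA. Their levels there were 0.990 CPM (0.204 to 2.89), 2.01 CPM (0.808 to 4.14) and 3.05 CPM (1.39 to 5.79). These intervals overlap, so the level does not separate the library labelled as Trp53 deletion from those labelled with Tut1 deletion. Tut1-201, the only protein-coding transcript in the annotation, had 28, 0, 2 and 6 reads. The 0 allows up to 0.990 CPM (3 reads) and stands against 7.04 CPM in the control, at least 7.11-fold lower by that floor. With the counting error of both libraries, the exact 95% upper bound of the log2 ratio was -2.44. The other libraries with Cre mRNA lay below the control by log2 ratios of -3.62 (-6.73 to -1.63) and -1.79 (-3.35 to -0.49). Tut1-202, an intron-retaining transcript that also holds exon 2, had 3, 3, 5 and 3 reads. Together the 2 made up 83.8% (Wilson 95% interval 68.9% to 92.3%) of Tut1 reads in the control, and 27.3% (9.75% to 56.6%), 50% (26.8% to 73.2%) and 33.3% (18.6% to 52.2%) in the libraries with Cre mRNA. Their summed level was lower than in the control by log2 ratios of -2.98 (-5.33 to -1.30), -1.96 (-3.38 to -0.75) and -1.35 (-2.61 to -0.25). Between the libraries labelled as double deletion and as Trp53 deletion it differed by 0.60 (-0.99 to 2.26), within counting error. The remaining reads came from 3 isoforms named by a read, whose exons the table does not give. These had 6, 8, 7 and 18 reads, and were higher in the library labelled as double deletion than in the control (log2 ratio 2.02, 0.62 to 3.64) and than in the library labelled as Trp53 deletion (1.60, 0.28 to 3.10). Whether they lack exon 2 cannot be read from the table. In edgeR's fit of Cre mRNA status the whole gene had a log2 fold change of -0.73 (SE 0.50, FDR 0.32), which became -1.87 (FDR 0.027) with plain Ensembl transcripts only and -1.25 (FDR 0.027) without the library labelled as double deletion. It was -0.54 (FDR 0.58) without the library labelled as Trp53 deletion, -0.52 (FDR 0.58) without that labelled as Tut1 deletion and -0.74 (FDR 0.60) by DESeq2.

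**Figure D1:**
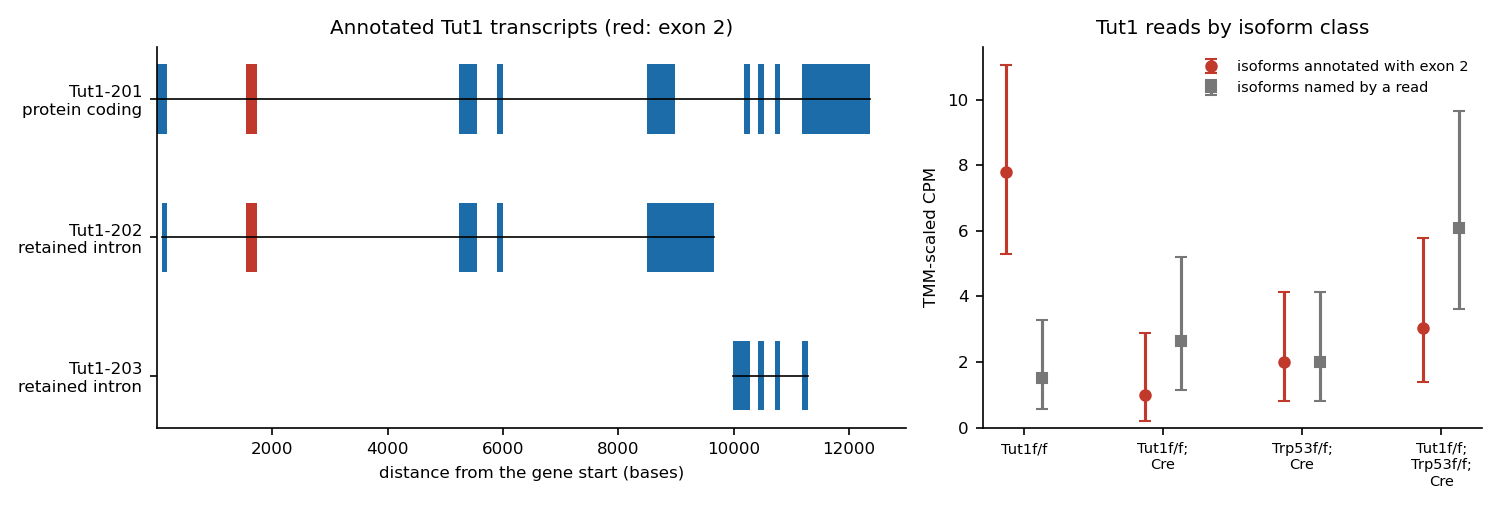
Left, exons (boxes) of the 3 annotated Tut1 transcripts by distance from the gene start in bases, with exon 2 in red. Right, TMM-scaled CPM of Tut1 isoforms annotated with exon 2 (red circles) and of isoforms named by a read (grey squares) in each library, with exact Poisson 95% intervals. The red points fall from 7.79 CPM in the control to between 0.990 and 3.05 CPM, and the grey point is highest, at 6.10 CPM, in the library labelled as double deletion.

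Usb1, the trimming exonuclease, was lower in every library that received Cre mRNA. The gene (ENSMUSG00000031792, chr8:95332284-95347507, plus strand) had 78, 20, 19 and 20 reads, or 19.6 CPM (15.5 to 24.5), 6.60 CPM (4.03 to 10.2), 5.45 CPM (3.28 to 8.52) and 6.78 CPM (4.14 to 10.5). The 3 intervals with Cre mRNA overlap each other and none overlaps the control. Folds against the control were 2.97, 3.60 and 2.89, and between the libraries labelled as double deletion and as Trp53 deletion the log2 ratio was 0.31 (-0.67 to 1.30). In a fit of Cre mRNA status over the 4 libraries, edgeR's quasi-likelihood test gave a log2 fold change of -1.63 (SE 0.35, FDR 0.0067), the only one of the 7 genes called. That fit called 17.0% of the 9882 genes tested, it rests on a control of 1 library, and its 2 residual degrees of freedom come from the libraries with Cre mRNA. Without the library labelled as Trp53 deletion the log2 fold change of Usb1 was -1.54 (SE 0.30, FDR 0.099), and no gene of the whole table was called by edgeR (2693 were at an unadjusted p under 0.05). Usb1-201, the coding transcript, had 58, 19, 13 and 16 reads and lay below the control beyond counting error in all 3 libraries, while 2 isoforms named by a read had 11, 0, 4 and 4, and 9, 1, 2 and 0. The share of Usb1-201 ranged from 68.4% (46.0% to 84.6%) in the library labelled as Trp53 deletion to 95% (76.4% to 99.1%) in that labelled as Tut1 deletion, and no isoform of the gene was called for usage.

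Ssb, which encodes La, differed by at most 1.40-fold from the control in level but divided its reads differently between isoforms. The gene (ENSMUSG00000068882, chr2:69861562-69871846, plus strand) had 1161, 1008, 1019 and 1205 reads, or 292 CPM (275 to 309), 333 CPM (313 to 354), 292 CPM (275 to 311) and 408 CPM (386 to 432). The highest value, in the library labelled as double deletion, was 1.40-fold that of the control and 1.40-fold that of the library labelled as Trp53 deletion, with intervals of the log2 ratios that exclude 0 (0.37 to 0.60 and 0.36 to 0.60). These are under the 2-fold rule. Ssb-201 had 692, 752, 715 and 873 reads and Ssb-206 had 294, 109, 129 and 127. Both encode the same protein. In Ssb-206 the untranslated exon 1 ends 27 bases further downstream and the last exon 60 bases further downstream. Its share of Ssb reads was 25.3% (22.9% to 27.9%) in the control and 10.8% (9.04% to 12.9%), 12.7% (10.8% to 14.8%) and 10.5% (8.93% to 12.4%) in the others. The intervals with Cre mRNA overlap each other and lie apart from the control. Fisher's exact test on reads, two-sided and adjusted over all isoforms tested, gave differences of -14.5 points (FDR 4.00e-16), -12.7 points (FDR 5.74e-12) and -14.8 points (FDR 1.41e-18). Ssb-201 was higher by 15.0, 10.6 and 12.8 points. Between the libraries labelled as double deletion and as Trp53 deletion, Ssb-206 differed by -2.12 points (FDR 0.61). This test compares libraries, not conditions, and takes each read as independent. The 3′ end of Ssb overlaps Mettl5 on the other strand by 649 bases, and since the use of strand in the counting was not given in the sources used here, reads of the overlap may be shared. Mettl5 had 36.2, 25.4, 39.0 and 30.5 CPM, highest in the library labelled as Trp53 deletion, and its part in the result was not tested. The 2 other annotated transcripts, Ssb-202 and Ssb-204, had at most 6 reads in a library, a variant of Ssb-201 had 61, 29, 22 and 35, and 7 isoforms named by a read held 109, 113, 145 and 168 reads together.

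Larp7 lay 1.24-fold to 1.42-fold above the control in the libraries with Cre mRNA. The gene (ENSMUSG00000027968, chr3:127536714-127553349, minus strand) had 393, 399, 427 and 414 reads, or 98.8 CPM (89.3 to 109), 132 CPM (119 to 145), 123 CPM (111 to 135) and 140 CPM (127 to 155). All 3 intervals lie above that of the control, and the library labelled as double deletion did not differ from the library labelled as Trp53 deletion beyond counting error (log2 ratio 0.20, -0.003 to 0.39). In the fit of Cre mRNA status the log2 fold change was 0.43 (SE 0.23, FDR 0.20). The coding transcript Larp7-201 had 319, 311, 321 and 303 reads and 1 isoform named by a read had 65, 70, 85 and 90. Larp7-204, which retains an intron, had 8, 17, 21 and 20 reads, so its share was 2.04% (1.04% to 3.96%) in the control and 4.26% to 4.92% in the others. The differences of 2.23, 2.88 and 2.80 points had FDR values of 0.33, 0.16 and 0.19. Mir302a to Mir302d and Mir367 lie inside Larp7 on the plus strand and were not counted here.

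Mepce had the fewest reads of the 7 genes, and its values carry wide intervals. It (ENSMUSG00000029726, chr5:137781906-137787655, minus strand) had 10, 23, 12 and 11 reads, or 2.51 CPM (1.21 to 4.62), 7.59 CPM (4.81 to 11.4), 3.44 CPM (1.78 to 6.02) and 3.73 CPM (1.86 to 6.67). The library labelled as Tut1 deletion was the highest, 3.02-fold above the control (log2 ratio 1.59, 0.47 to 2.83), and the other libraries with Cre mRNA were not separated from the control. All reads belonged to variants of 2 Ensembl transcripts. The Mepce-201 variant had 4, 21, 11 and 9 reads and the Mepce-202 variant had 6, 2, 1 and 2. The share of the first was 40.0% (16.8% to 68.7%) in the control and 91.3% (73.2% to 97.6%), 91.7% (64.6% to 98.5%) and 81.8% (52.3% to 94.9%) in the others. Only the difference of 51.3 points in the library labelled as Tut1 deletion was called (FDR 0.035), and it rests on 10 reads of the control. Rn7sk, the RNA that MEPCE and LARP7 stabilise, had 46, 74, 58 and 33 reads. Its log2 ratio to the control was 1.08 (0.53 to 1.64) in the library labelled as Tut1 deletion, 0.53 (-0.06 to 1.12) in the library labelled as Trp53 deletion and -0.05 (-0.74 to 0.63) in the library labelled as double deletion. Few or no reads of Rn7sk were expected in a poly(A) cDNA library, and whether its reads follow the level of 7SK was not tested. No value of U6 RNA itself is given here.

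Mettl16 was lowest in the library labelled as Trp53 deletion. The gene (ENSMUSG00000010554, chr11:74770830-74828525, plus strand) had 96, 66, 48 and 89 reads, or 24.1 CPM (19.6 to 29.5), 21.8 CPM (16.9 to 27.7), 13.8 CPM (10.2 to 18.3) and 30.2 CPM (24.2 to 37.1). The library labelled as double deletion was 2.19-fold higher than the library labelled as Trp53 deletion (log2 ratio 1.13, 0.61 to 1.67), and neither was past the 2-fold rule against the control. In the fit of Tut1 status, with Trp53 status as a second term, the log2 fold change was 0.47 (SE 0.59, FDR 1). Its main isoform, a variant of Mettl16-205, had 67, 49, 31 and 62 reads, between 64.6% and 74.2% of the gene, and no isoform was called for usage. Mat2a, whose mRNA METTL16 binds and methylates, had 471, 123, 148 and 202 reads, with log2 ratios to the control of -1.54 (-1.84 to -1.25), -1.48 (-1.76 to -1.21) and -0.79 (-1.04 to -0.55).

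Sart3 was higher in every library with Cre mRNA. The gene (ENSMUSG00000018974, chr5:113742446-113772510, minus strand) had 90, 124, 137 and 109 reads, or 22.6 CPM (18.2 to 27.8), 40.9 CPM (34.1 to 48.8), 39.3 CPM (33.0 to 46.5) and 36.9 CPM (30.3 to 44.6). Folds against the control were 1.81, 1.74 and 1.63, all under the 2-fold rule, with intervals of the log2 ratios that exclude 0. The fit of Cre mRNA status gave a log2 fold change of 0.81 (SE 0.29, FDR 0.063). All of its reads belonged to 1 isoform named by a read, so nothing can be said of its isoforms. Gm3511, a processed pseudogene inside Sart3 on the plus strand, had 2753, 3373, 4286 and 3032 reads under its own name.

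**Figure D2:**
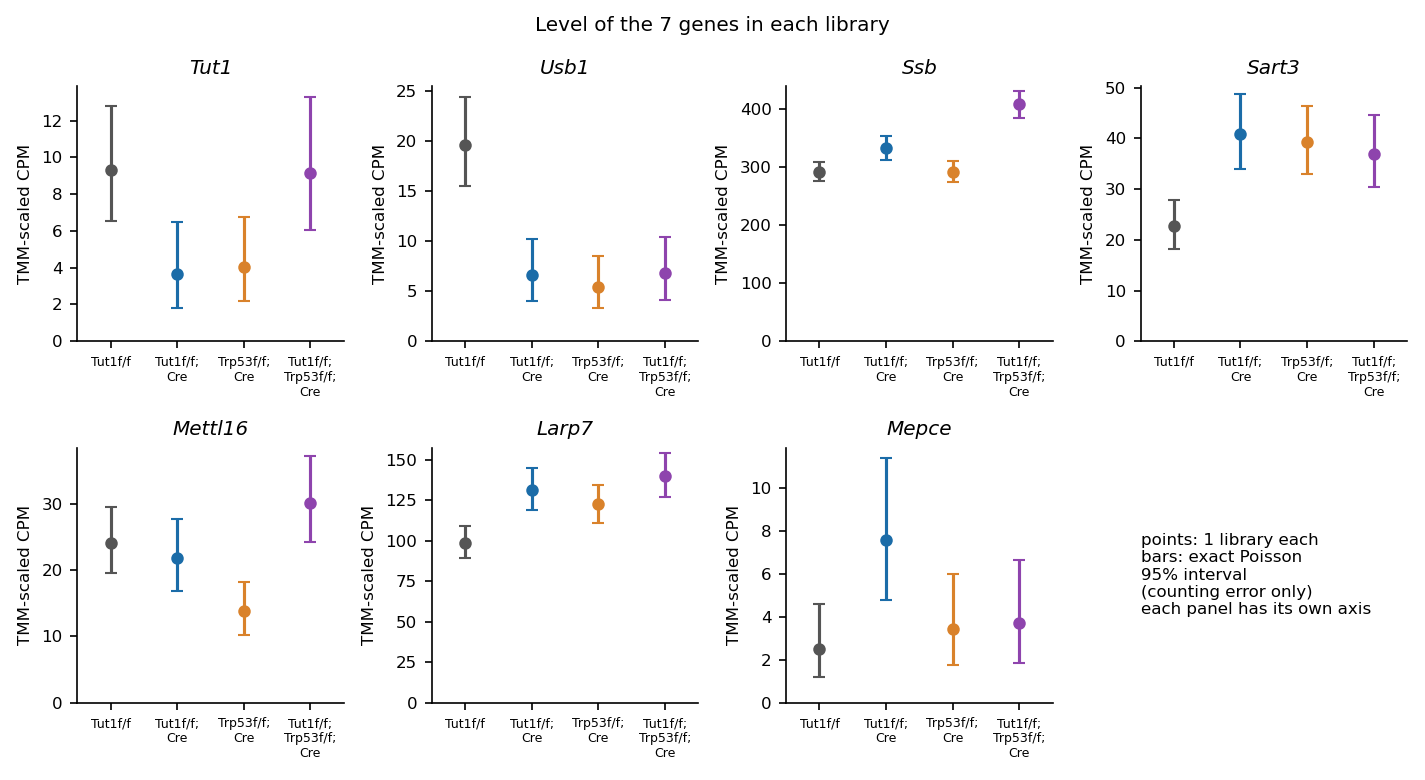
Level of each of the 7 genes in each library as TMM-scaled CPM, with exact Poisson 95% intervals and an axis of its own from 0 for each gene. Usb1 falls from 19.6 CPM to between 5.45 and 6.78 CPM in the libraries with Cre mRNA, Sart3 goes from 22.6 CPM to between 36.9 and 40.9 CPM, and Tut1 is low in the library labelled as Trp53 deletion as well as in that labelled as Tut1 deletion.

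Set side by side, the comparisons with the control moved 1 to 3 of the 7 genes past the 2-fold rule. For the library labelled as Tut1 deletion, Tut1 and Usb1 were lower and Mepce was higher (3 of 7, against 26.0% of the 9882 genes tested). For the library labelled as Trp53 deletion, Tut1 and Usb1 were lower (2 of 7, against 27.8%). For the library labelled as double deletion, Usb1 alone was lower (1 of 7, against 20.1%). The comparison of that library with the library labelled as Trp53 deletion, the only one of Tut1 status in which both libraries received Cre mRNA, placed Tut1 and Mettl16 past the rule (2 of 7, against 7.24%), both higher in the library labelled as double deletion. These 2 libraries also differed in Ddx3y (66 against 0 reads) and Xist (0 against 49 reads). The library labelled as Tut1 deletion and the control were likewise divided by these genes, so Tut1 status and this division cannot be told apart in either comparison. On the log2(CPM + 0.5) scale, the median differences of the 7 were 0.19, 0.00, 0.48 and 0.29 in these 4 comparisons, against -0.01, -0.02, -0.01 and 0.03 over all genes tested. The comparisons with the control share that library. In the fit of Tut1 status over the 4 libraries, edgeR called none of the 7 genes (0.00% of all genes, with 171 genes of unadjusted p below 0.05, and by DESeq2 likewise 0, with 70), and in that of Trp53 status none of the 7 (0.0101% of all genes). Every FDR of the 7 in these fits rounded to 1. Both fits have 1 residual degree of freedom.

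**Figure D3:**
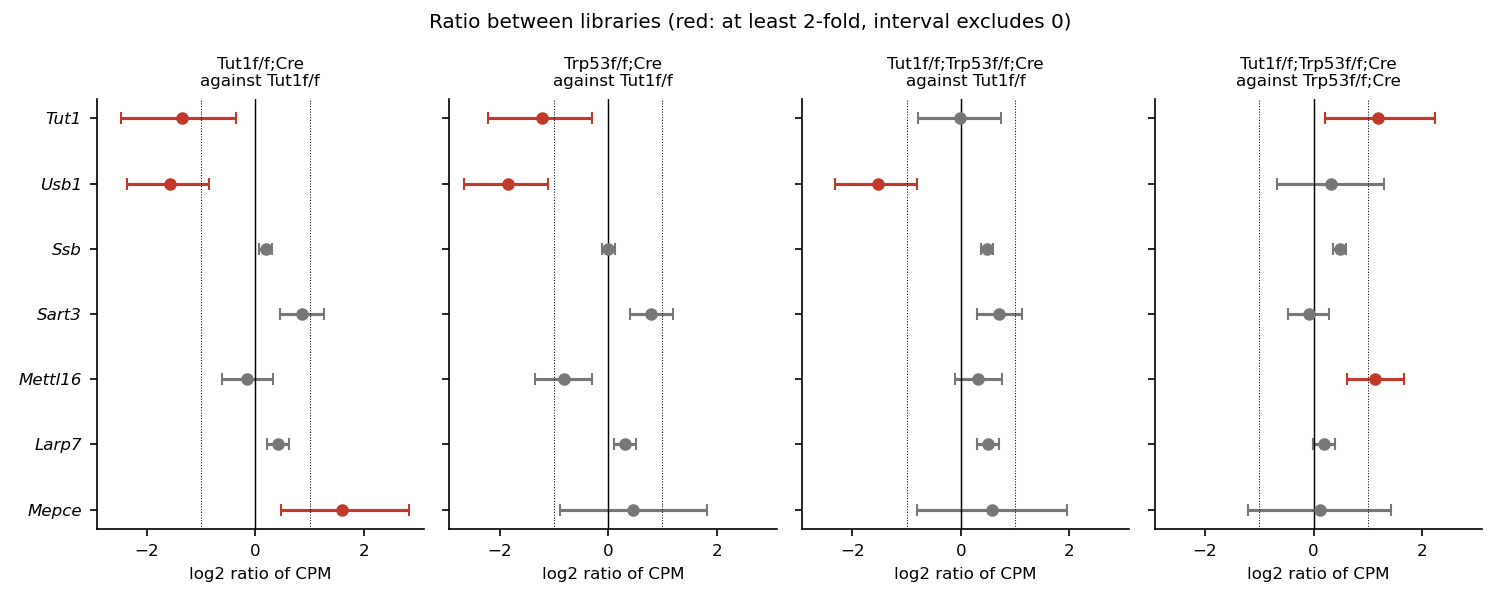
Log2 ratio of TMM-scaled CPM with its exact 95% interval for the 7 genes in each of 4 comparisons of libraries. Red marks a ratio of at least 2-fold (dotted lines) whose interval excludes 0. Usb1 is red on the left in all 3 comparisons with the control, and Tut1 turns from -1.36 in the first panel to 1.19 in the last.

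For isoform usage, 4 of 19 isoforms of the genes were called in the library labelled as Tut1 deletion against the control (8.16% of all isoforms tested), 3 of 20 in the library labelled as Trp53 deletion (8.70%) and 3 of 21 in the library labelled as double deletion (6.03%). Calls needed an FDR under 0.05 and 10 points or more of difference. Ssb-201, Ssb-206 and Tut1-201 were called in all 3, and the Mepce-201 variant in the first. For Tut1-201 the share differed from the control by -75.7 points (FDR 2.08e-04), -61.4 points (FDR 0.0018) and -53.5 points (FDR 0.0010), from gene totals of 11 to 37 reads. Between the libraries labelled as double deletion and as Trp53 deletion, 0 of 18 isoforms were called by Fisher's exact test, against 1.13% of all isoforms tested, and 1 had an unadjusted p under 0.05, the third of the Ssb isoforms named by a read (0.0013, FDR 0.055).

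**Figure D4:**
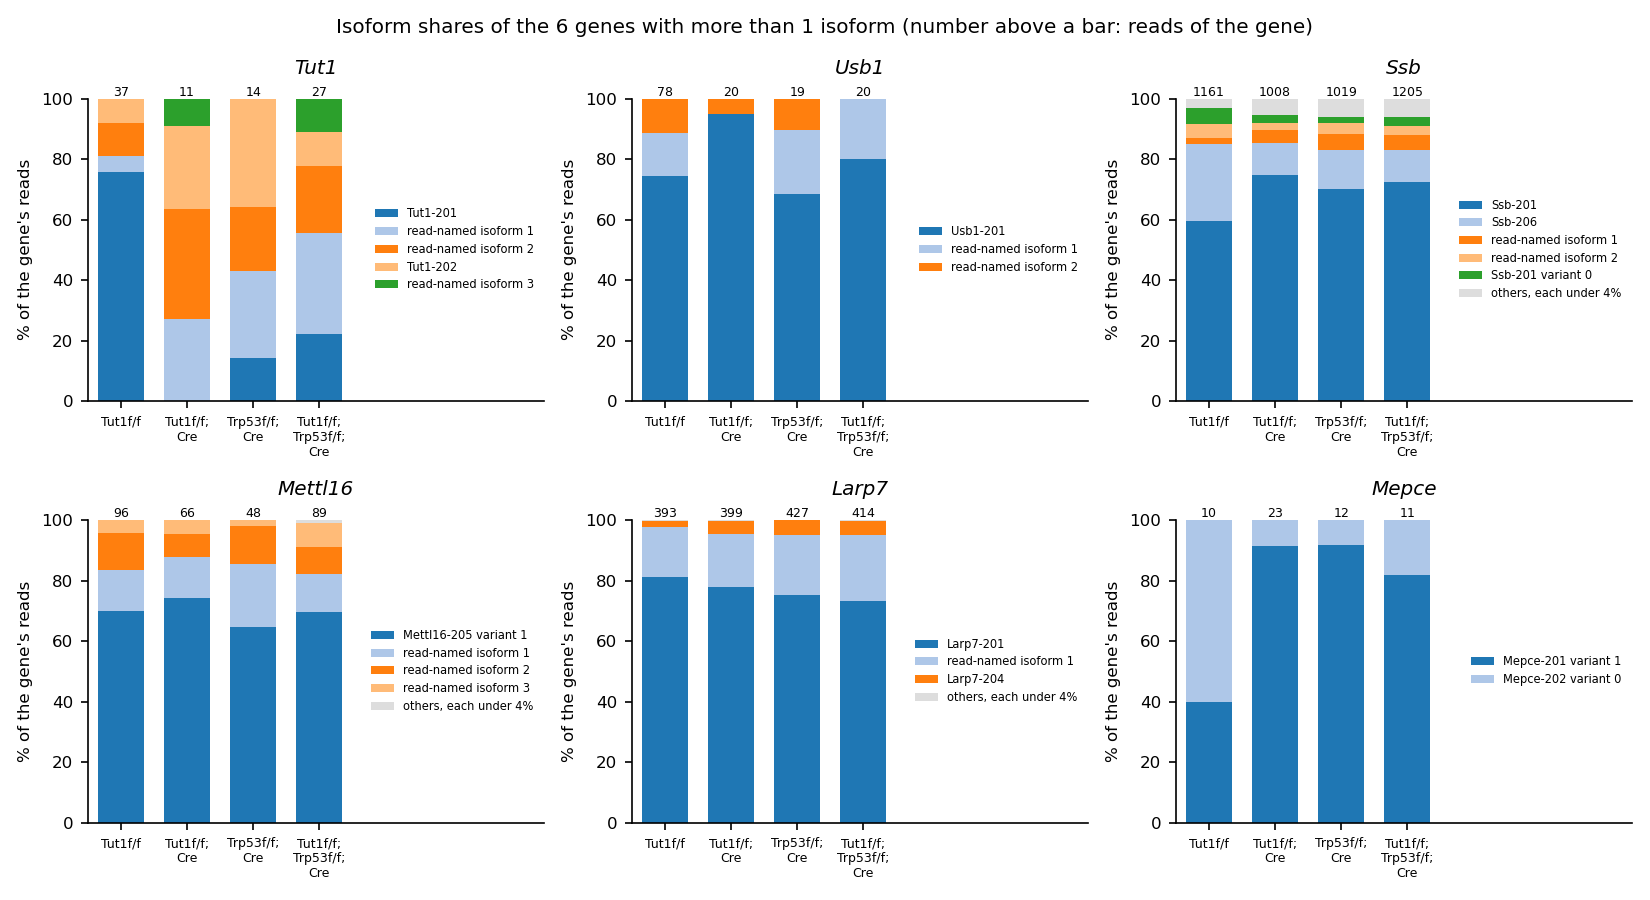
Percentage of each gene's reads that each isoform holds, by library, for the 6 genes with more than 1 isoform, with the reads of the gene above each bar. Ssb-206 falls from 25.3% in the control to between 10.5% and 12.7%, Tut1-201 from 75.7% to between 0% and 22.2%, and the Mepce-201 variant holds 40.0% in the control and 81.8% to 91.7% in the others.

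Entries that name only a chromosome position were kept out of all the values above. They were counted inside the span of each gene after the values were seen, by their positions as given in the table, whose strand and precision are not stated. The span of Mettl16 held 25, 115, 61 and 102 such reads in 18 entries, or 6.29 CPM (4.07 to 9.28), 38.0 CPM (31.3 to 45.6), 17.5 CPM (13.4 to 22.5) and 34.6 CPM (28.2 to 42.0). Of all reads in the span they were 20.7% (14.4% to 28.7%) in the control and 63.5% (56.3% to 70.2%), 56.0% (46.6% to 64.9%) and 53.4% (46.3% to 60.3%) in the others. Ssb held 13, 38, 30 and 30 such reads, Sart3 7, 17, 18 and 11, Larp7 3, 13, 18 and 9, and Mepce 14, 17, 13 and 16. Tut1 held at most 1 in a library and Usb1 at most 3. Of all genes with at least 10 such reads over both libraries, 59.2%, 54.8% and 52.6% were past the 2-fold rule in either direction against the control (5055, 4672 and 4369 genes higher and 71, 83 and 97 lower), and 3.31% (128 higher and 168 lower) between the libraries labelled as double deletion and as Trp53 deletion. Of the 5 genes counted in the first and second comparison 4 were past it (Ssb, Sart3, Mettl16 and Larp7), in the third 3 of 5 (Ssb, Mettl16 and Larp7) and in the fourth none. The share of reads naming no gene moves with this result, and its part in it was not tested.

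**Figure D5:**
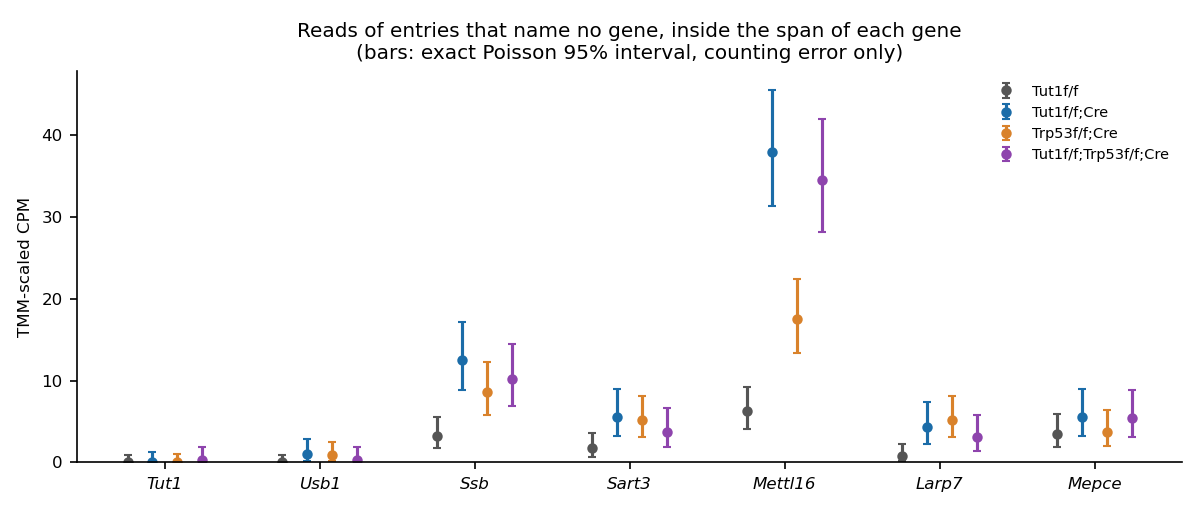
TMM-scaled CPM of reads from entries that name no gene, inside the span of each of the 7 genes, by library, with exact Poisson 95% intervals. Mettl16 stands at 6.29 CPM in the control and at 17.5 to 38.0 CPM in the libraries with Cre mRNA, while Tut1 and Usb1 stay near 0.

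Other proteins of the pathway were described by lists, by the same rule. The shares of all genes past it, 26.0%, 27.8% and 20.1% against the control and 7.24% between the libraries labelled as double deletion and as Trp53 deletion, are the background for every count that follows. Of the 7 LSm ring proteins, which hold the mature 3′ end of U6, only Lsm2 was past the rule. It had 520, 96, 122 and 108 reads, log2 ratios to the control of -2.04 (-2.37 to -1.73), -1.90 (-2.20 to -1.61) and -1.84 (-2.15 to -1.54), and a log2 fold change of -1.91 (FDR 3.06e-04) in edgeR's fit of Cre mRNA status. The list's medians were 0.24, 0.15 and 0.48 against the control. Among 15 proteins of the U4/U6 and U4/U6.U5 particles, 3, 2 and 4 were higher than the control and 1 was lower each time. Eftud2, the GTPase of the U5 particle, had 214, 21, 21 and 40 reads and was the lower one (log2 fold change for Cre mRNA status -2.60, FDR 5.94e-04). Snrnp200, the helicase that unwinds U4 from U6, had 293, 774, 515 and 738 reads (1.58, FDR 0.0047), and Sart1 had 21, 80, 82 and 71 (2.23, FDR 0.0021). Prpf8 was past the rule in the libraries labelled as Tut1 deletion and as double deletion, and Ddx23 in the latter (log2 ratio 1.18, 0.93 to 1.43). Prpf8 and Prpf3 were higher in the library labelled as double deletion than in the library labelled as Trp53 deletion, by log2 ratios of 1.27 (0.86 to 1.69) and 1.67 (1.21 to 2.16), as was Eftud2 by 1.17 (0.37 to 2.01). The list's medians were 0.21, 0.02 and 0.47 against the control and 0.55 in that comparison.

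Of the other exonucleases of small RNA 3′ ends, 9 were tested. Parn, which trims oligo(A) tails, had 92, 25, 29 and 21 reads and had log2 ratios to the control of -1.49 (-2.19 to -0.84), -1.47 (-2.13 to -0.86) and -1.70, with an edgeR FDR of 0.0067 for Cre mRNA status. Toe1, which trims snRNA 3′ ends, had 42, 14, 6 and 26 reads, with log2 ratios to the control of -1.19, -2.62 and -0.26, and was 2.36 (1.04 to 3.93) higher in log2 ratio in the library labelled as double deletion than in the library labelled as Trp53 deletion. Eri1, which trims histone mRNA, was higher than the control by log2 ratios of 1.24 and 1.06 in the libraries labelled as Tut1 deletion and as Trp53 deletion, and Rexo1 was lower by a log2 ratio of -1.34 (-2.62 to -0.20) in the latter. The medians of this list were -0.12, -0.61 and 0.03. Among 6 other terminal nucleotidyltransferases tested, Tut4 alone was past the rule, with 72, 122, 91 and 76 reads and a log2 ratio of 1.15 (0.72 to 1.59) in the library labelled as Tut1 deletion, with list medians of 0.65, 0.50 and 0.37. Neither of the 2 other La-related proteins tested was, with medians of 0.59, 0.76 and 0.71.

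Of 9 tested factors that transcribe U6, 2 were higher and 1 lower in the libraries labelled as Tut1 deletion and as Trp53 deletion, and 2 were higher in the third, against 26.0%, 27.8% and 20.1% of all genes. The higher ones were Bdp1 and Pou2f1 in the first and second, and Snapc4 (log2 ratio 1.02, 0.41 to 1.63) and Pou2f1 in the third. Bdp1 had 46, 97, 106 and 65 reads (log2 fold change for Cre mRNA status 1.30, FDR 0.021) and Pou2f1 had 9, 18, 40 and 36 (2.13, FDR 0.021), while Snapc2, a subunit of the complex that binds the U6 promoter, had 157, 46, 62 and 88. The medians were -0.02, -0.07 and -0.12. Of the 4 tested partners of 7SK, the cyclin gene Ccnt2 had 72, 134, 92 and 107 reads and was past the rule in the libraries labelled as Tut1 deletion and as double deletion, the latter with Ccnt1 as well, and the medians were 0.24, 0.14 and 0.31. Among 10 tested genes around METTL16 and the other m6A methyltransferases, Mettl14, the partner of Mettl3, had 82, 13, 8 and 17 reads (log2 fold change for Cre mRNA status -2.32, FDR 0.0027) and was past the rule in all 4 comparisons, the last of them upward. Mat2a was called lower in the same fit (-1.22, FDR 0.0093), and Zc3h13 was past the rule upward in the first and second comparison, with list medians of -0.02, 0.11 and -0.05. Over the 8 lists, edgeR's fit of Cre mRNA status called 4 genes higher (Snrnp200, Sart1, Bdp1 and Pou2f1) and 5 lower (Lsm2, Eftud2, Parn, Mettl14 and Mat2a) of 62 tested, a share to be read beside the 17.0% of all genes.

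Across the 4 libraries, the genes nearest in pattern to each of the 7 were found by the root mean square difference of centred log2 values among 5586 genes with at least 50 reads on average. They were Mpdu1 (0.027) and Lmo4 (0.037) for Usb1, Scamp4 (0.050) and Haus5 (0.060) for Tut1, Coa4 (0.019) and Erh (0.024) for Ssb, Ndufb10 (0.016) and Ufm1 (0.018) for Larp7, Fam219b (0.022) and Rnf6 (0.023) for Sart3, Brd8 (0.063) and Vps45 (0.066) for Mettl16, and Gin1 (0.15) and Tut4 (0.16) for Mepce. Within a difference of 0.2, Larp7 had 1268 such genes, Ssb 970, Sart3 899, Mettl16 151, Usb1 86, Tut1 55 and Mepce 5. A pattern over 4 points allows many genes to lie close, and the likeness is given as a description.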

How the data were processed

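Per the labels, total RNA was made into cDNA-PCR libraries for Nanopore sequencing, 1 per group. The authors deposited 1 isoform table of raw read counts, with a column for each library. The labels name mm10. The aligner, isoform caller, filters and use of strand behind this table were not given in the sources used here. The study names minimap2 and FLAIR for its long reads of embryonic pallium, and does not say whether they made this table. Its 255164 entries name a gene (46637) or only a position (208527), and the latter stayed out of library sizes and tests. Counts were summed per Ensembl gene, and symbols, positions and transcripts came from GENCODE M21 (GRCm38). The sequence of U6 is not reported here.

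The members, lists, thresholds and alternatives were chosen with earlier results of these data known. Levels and ratios used TMM factors over all genes, and ratios were counted at 2-fold with an exact conditional binomial 95% interval that excludes 1. Fits used edgeR 4.0.16 in R 4.3.3 (quasi-likelihood F test, TMM and default filter over 9882 genes, all 7 members among them, FDR under 0.05 and 2-fold), with DESeq2 1.42.0 as alternative. SEs were obtained by dividing each log2 fold change by the root of its F value. Usage was tested with Fisher's exact test for isoforms with at least 10 reads over both libraries in genes with at least 10 in each, Benjamini-Hochberg adjusted over the whole table. List medians used a pseudocount of 0.5 CPM. Shares have Wilson intervals, and a count of 0 a floor of 3 reads. Isoforms named by a read are numbered by total reads. The fits, the ratio rule and the usage test were run on simulated counts. Among the fits, recovery of changed genes was required only of edgeR's fit of Cre mRNA status, and of the others only that no called gene had the wrong sign. Genes named are the members with their isoforms, overlapping genes, list genes past a rule and the 2 nearest in pattern. Python 3.11.15, numpy 2.4.6, scipy 1.17.1, pandas 2.3.3 and matplotlib 3.10.9 were used.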

Additional observations from a re-analysis of the deposited data

Results flagged for a closer look

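Total Tut1 reads moved in opposite directions with Tut1 status. The log2 ratio was -1.36 (-2.48 to -0.36) between the library labelled as Tut1 deletion and the control, and 1.19 (0.21 to 2.23) between the libraries labelled as double deletion and as Trp53 deletion. For isoforms annotated with exon 2 the ratios were -2.98 (-5.33 to -1.30) and 0.60 (-0.99 to 2.26). The difference between the ratios of the total was not tested, since 4 libraries leave no degree of freedom for it.

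Reads that name no gene, which enter none of the tests, were above the control inside the span of 4 genes. For Mettl16 the log2 ratios to the control were 2.59 (1.96 to 3.28), 1.48 (0.78 to 2.21) and 2.46 (1.82 to 3.15) in the libraries labelled as Tut1, Trp53 and double deletion. Those of Larp7 were 2.51, 2.78 and 2.02, from 3 reads in the control, and those of Ssb were 1.94, 1.40 and 1.64. For Sart3 they were 1.67 in the library labelled as Tut1 deletion and 1.55 in the library labelled as Trp53 deletion. Over the spans of all genes with at least 10 such reads, the median log2 ratios were 1.34, 1.21 and 1.17. Mettl16 also differed between the libraries labelled as double deletion and as Trp53 deletion, by 0.98 (0.51 to 1.46) against a median of -0.07.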

How the results depend on the processing

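Of 427 values of single genes or isoforms under other settings, 412 kept their side of the threshold, 8 lost it, 7 gained it and 0 of the called ones changed sign. Part of this tally was fixed beforehand, since the 1.5-fold setting could only add calls and the setting of 20 points only remove them. Neither could change a sign, and values left untested under a setting were not counted. On the log2 scale, library totals of gene reads shifted every ratio to the control by 0.12 to 0.14, totals of all reads by -0.12 to -0.05, and gene reads without the ribosomal RNA gene, an alternative chosen after seeing the data, by -0.08 to -0.03. The count for Cre mRNA status was 1676 genes, 980 with DESeq2, 1095 with plain Ensembl transcripts only, and 0 to 2393 when a library with Cre mRNA was left out, 0 being that without the library labelled as Trp53 deletion. Usb1 was called in all of these but the last. The single call for Trp53 status became 0 with plain transcripts only (79 genes at an unadjusted p under 0.05 in edgeR). At 1.5-fold, members past the ratio rule went from 3 to 4 (library labelled as Tut1 deletion, with Sart3), from 2 to 4 (library labelled as Trp53 deletion) and from 1 to 2 (library labelled as double deletion). With plain transcripts only they went from 3 to 2 in the first, where Mepce has no such transcript, from 1 to 2 in the last, and from 2 to 0 between the libraries labelled as double deletion and as Trp53 deletion, where Mettl16 has nearly no such transcript and the log2 ratio of Tut1 went from 1.19 to 0.54. Usage calls against the control went from 4 to 2, 3 to 1 and 3 to 1 at 20 points, and from 4 to 2 with 20 reads per gene, which leaves Tut1 and Mepce untested, or with plain transcripts only. The cause of other changes was not tested. Tut1 and Mepce are limited by 10 to 37 reads per library. No paired analysis was possible because each group holds 1 library.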
